A study of Drosophila melanogaster with 8 samples.

Results

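The sloppy paired locus holds slp1 and slp2, neighbouring genes on chromosome arm 2L that encode forkhead transcription factors (TFs). Dpn binding at the locus was read from 2 peak lists, 1 for all neuroblasts (NBs) of the larval brain (the pan-NB list) and 1 for medulla NBs of the optic lobe (the medulla list). A peak was counted as a member by its position alone, if at least 1 bp of it lay within 20 kb of slp1 or slp2 or in the interval between them. This gave 31 peaks of 7756 in both lists together, which were 15 of the 4282 pan-NB peaks and 16 of the 3474 medulla peaks. An inner set lay within 1 kb of either gene or between them, and held 5 peaks of each list.

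Both lists come from DamID in brains of 3rd instar larvae, with 2 biological replicates in each of 4 groups. For the pan-NB list, Dam-Dpn was expressed with wor-GAL4 in all larval NBs and set against Dam-only under the same driver, from 30 brains per replicate. The bacterial methylase Dam marks GATC sites near the DNA that the fusion protein contacts. For the medulla list, NanoDam was used, in which Dam is joined to a nanobody that binds GFP. Larvae with Dpn-GFP, a recombineered BAC under endogenous control, were set against the w1118 background without the tag, from 40 brains per replicate, with ey-GAL4 (eyR16F10-GAL4) as the driver. This driver is also active in medulla neurons, so the driver alone does not limit the list to NBs. All groups carried GAL80ts and were moved from 18°C to 29°C to start Dam expression. The lists differ at once in technique, driver and cells, whose effects cannot be told apart. Each list was deposited as 1 average per comparison, so a peak is 1 value without replicate error. Profiles of single replicates were not analysed here, differences between the lists are given without a test, and the depth behind a peak is unknown. The lists hold binding and no expression, so marker genes could not check the cell types.

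Dpn is a bHLH-Orange TF of the Hes type, which was historically classed as a repressor and is known as a marker of NBs. The study cites earlier work that reported both upregulated and downregulated Dpn targets. As they age, medulla NBs switch on a series of temporal TFs (tTFs) in order, with Hth first, then Ey, Slp, D and Tll. Slp1 and Slp2 are closely related and act as the mid tTF Slp, which represses the preceding tTF Ey and is needed for the step to D. In the embryo both genes are known as segmentation genes of the pair-rule class. The comparison asks where Dpn sits around these genes in all NBs and in medulla NBs.

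No other protein-coding gene had more of its surroundings within 20 kb covered by medulla peaks than slp1 and slp2, and both lay among the 29 most covered genes in the pan-NB list. Each protein-coding gene was widened by 20 kb on both sides, and the share of that stretch under peaks was computed. At slp1 it was 43.1% in the medulla list, rank 1 of 13922 genes, and 32.5% in the pan-NB list, rank 29. At slp2 it was 41.7% in the medulla list, rank 2, and 36.9% in the pan-NB list, rank 9. The median over all genes was 3.36% in the medulla list and 4.25% in the pan-NB list, and 1% of genes exceeded 24.9% and 26.9%. The windows of slp1 and slp2 overlap for most of their length, so they are not separate observations. The order depends on the width of the window. With 5 kb on both sides slp1 had rank 374 and slp2 rank 57 in the medulla list, and with 1 kb they had ranks 693 and 570. In the pan-NB list the ranks were 433 and 405 with 5 kb, and 750 and 2880 with 1 kb. The top ranks thus hold for windows of 20 kb. In the medulla list slp1 had 30.2% covered with 5 kb and 35.7% with 1 kb, and slp2 had 45.1% and 38.8%. In the pan-NB list slp1 had 31.1% and 37.7%, and slp2 had 31.8% and 8.51%. The medians over all genes were 0% at both widths. With 5 kb and 1 kb, 1% of genes exceeded 38.1% and 58.6% in the medulla list, and 41.3% and 62.3% in the pan-NB list. With the higher-scoring 50% of each list and 20 kb, slp1 and slp2 had ranks 6 and 7 for medulla peaks, and 7 and 2 for pan-NB peaks.

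**Figure D1:**
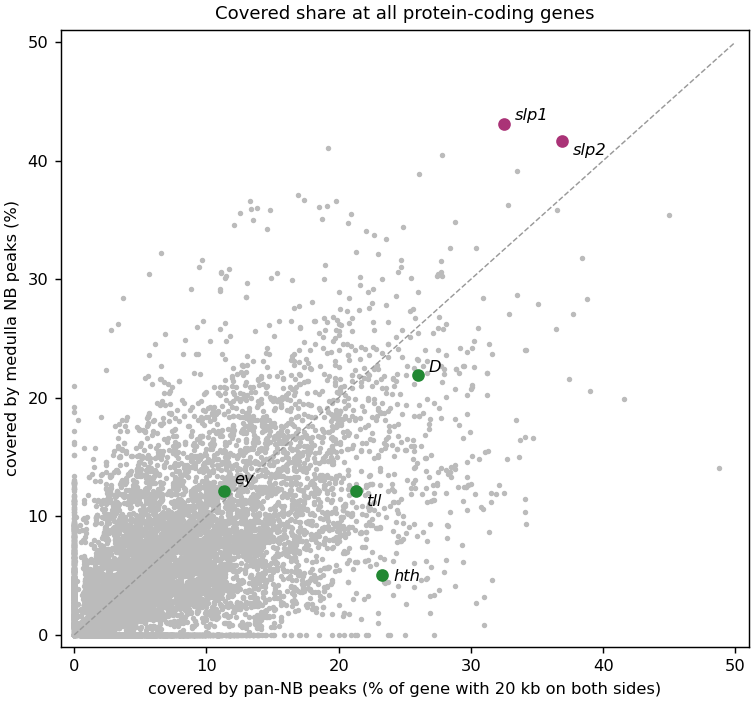
Share of each protein-coding gene, widened by 20 kb on both sides, that was covered by pan-NB peaks (x axis, %) and by medulla peaks (y axis, %). Grey points are the 13922 genes, coloured points the genes of the medulla temporal series, and the dashed line marks equal shares; slp1 (32.5%, 43.1%) and slp2 (36.9%, 41.7%) lie at the upper right, and hth (23.3%, 5.03%) far below the line.

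Most of the bound length lay outside both genes, as did most of the window, although a medulla peak reached into slp2. slp1, which is 1425 bp long, had the outermost 42 bp of its left end under a pan-NB peak and 0 bp under a medulla peak. slp2 is 2346 bp long and had 0 bp under a pan-NB peak and 687 bp, or 29.3% of the gene, under a medulla peak. Over all protein-coding genes a mean of 5.75% of the gene lay under pan-NB peaks and 4.82% under medulla peaks. A gene without a peak inside was the common case, since 20.7% had a pan-NB peak inside and 17.9% a medulla peak. The 9740 bp between slp1 and slp2, in which no other gene is annotated, were the most covered zone. Pan-NB peaks covered 4129 bp of it (42.4%) and medulla peaks 5120 bp (52.6%), and 3003 bp lay under peaks of both lists. The left flank, the 20 kb on the side of slp1, had 4932 bp under pan-NB peaks and 7697 bp under medulla peaks. The right flank, the 20 kb on the side of slp2, had 8048 bp and 7259 bp, and was the only zone beside slp1 itself with more length in the pan-NB list. In all, 17151 bp of the window of 53511 bp lay in pan-NB peaks (32.1%) and 20763 bp in medulla peaks (38.8%), where the lists as a whole cover 5.22% and 4.24% of the chromosome arms, measured to the last gene or peak. The surplus of the medulla list, 3612 bp, did not hold for the stronger peaks. Limited to the higher-scoring 50%, the medulla list covered less than the pan-NB list, 14303 bp against 16590 bp.

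**Figure D2:**
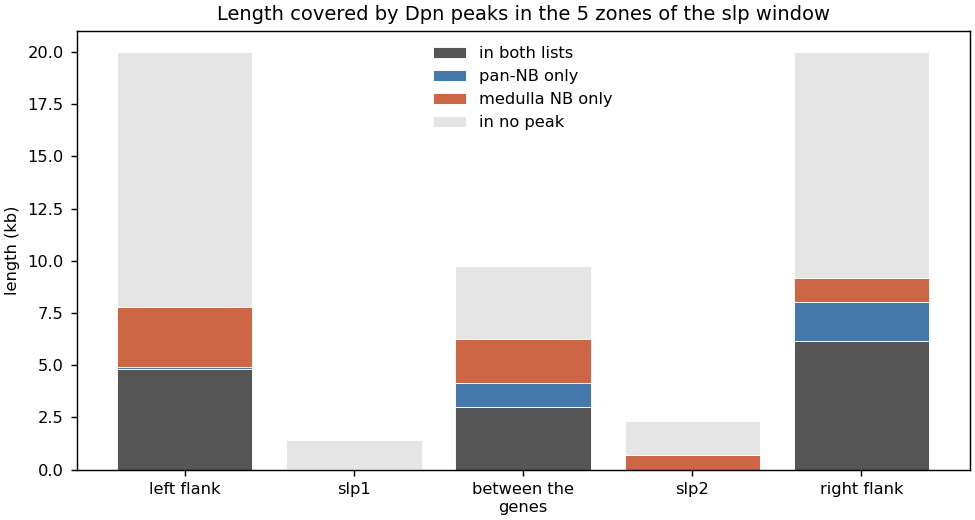
Length (kb) of the 5 zones of the window, split into bases under peaks of both lists, of the pan-NB list only, of the medulla list only and under no peak. The left flank has 2871 bp under medulla peaks only and 106 bp under pan-NB peaks only, while slp1 is almost free of peaks.

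Next to slp1, both lists had a peak on each side of the gene. The left pair sat at the end of the gene, with the pan-NB peak at chr2L:3824858-3825716 and the medulla peak at chr2L:3824947-3825657. The pan-NB peak ran 42 bp into slp1 and the medulla peak stopped 17 bp before it. These were the highest-scoring peaks of the inner set, with rank 493 of the pan-NB list and rank 537 of the medulla list. The score is the peak caller's own value without a stated scale, and is used here only to rank peaks within a list. The right pair lay between the genes, at chr2L:3827668-3828631 (pan-NB) and chr2L:3827588-3828631 (medulla), with the same right end. The gap to slp1 was 568 bp and 488 bp, and the ranks were 1553 and 1983.

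Between the genes the lists agreed in part. A pair of peaks at chr2L:3829452-3829855 (pan-NB) and chr2L:3829104-3829855 (medulla) also had 1 common right end, and ranks of 1724 and 2587. The pan-NB peak at chr2L:3831449-3832113, with rank 1053, had no counterpart, and the medulla list had no peak for 3199 bp there. Nearer to slp2, the pan-NB list had 1 peak at chr2L:3834114-3836209, which ended 630 bp before the gene. The medulla list had 2 peaks in its place, at chr2L:3833055-3834419 and chr2L:3834881-3837526, and the second ran 687 bp into slp2. The pan-NB peak had rank 1115 and the medulla peaks had ranks 1423 and 1964. The longer medulla cover at slp2 came from the second medulla peak alone, since the first ended 2420 bp before the gene. This second peak had a score of 3.55, below the median of its list (4.02). Within 1 kb, slp2 had 370 bp under pan-NB peaks, all of them also under medulla peaks, and 1687 bp under medulla peaks. slp1 had about equal lengths, 1291 bp and 1223 bp, of which 1143 bp were common. Most protein-coding genes had no peak within 1 kb, since 26.7% had one in the pan-NB list, 23.1% in the medulla list and 16.5% in both.

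The highest-ranking peaks of the locus lay to the right of slp2, beyond 3 kb of the gene. The medulla list had its best 2 peaks there, at chr2L:3842275-3843828 with a score of 9.73 and rank 176, and at chr2L:3844307-3847565 with a score of 11.05 and rank 69. Both peaks had exactly the same ends in the pan-NB list, with ranks 769 and 345. The wider one spans lncRNA:CR44983, a long non-coding RNA gene 5944 bp from slp2. The next pair followed at chr2L:3848792-3849374 (pan-NB) and chr2L:3848924-3849786 (medulla), and here the order was the reverse. The pan-NB peak was the best of the locus in its list, with a score of 7.37 and rank 184, while its medulla partner had rank 633. The pan-NB peak at chr2L:3851018-3852035, at lncRNA:CR45451, had no medulla NB counterpart. Farther out, the pan-NB peak at chr2L:3854896-3856233 overlapped 2 medulla peaks, by 34 bp at chr2L:3854231-3854929 and by 837 bp at chr2L:3855397-3856280. A narrow pan-NB peak of 296 bp at chr2L:3856416-3856711, of which 234 bp lay in lncRNA:CR45450, was unshared. These stretches lay near the lncRNA genes CR45449 and CR45450, for which no role is given here.

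To the left of slp1, the medulla list had more peaks. Its peaks at chr2L:3813192-3814768, of which 219 bp lay in the protein-coding gene CG3407, and at chr2L:3822484-3822668 had no pan-NB counterpart, with ranks 1426 and 1150. At lncRNA:CR44076 and lncRNA:CR44077, 1 peak began at the same base in both lists and was 1025 bp longer in the medulla list (chr2L:3815894-3819392, rank 910) than in the pan-NB list (chr2L:3815894-3818367, rank 1645). The peak at chr2L:3819719-3820124 was identical in both lists, with ranks 592 and 683. The next pair, at chr2L:3821185-3821858 (pan-NB) and chr2L:3821185-3821942 (medulla), differed more in rank, with 1045 and 2262. The leftmost member, chr2L:3803072-3806235 at Reph, was identical in both lists and was the lowest-ranking pan-NB member, with rank 3748. Only 561 bp of it lay inside the window, and it was separated from the next member by 9658 bp in the pan-NB list against 6956 bp in the medulla list. Beyond it, neither list had a peak for 88873 bp. On the right, the first peak outside the window lay 21438 bp from slp2 in the pan-NB list against 21733 bp in the medulla list.

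**Figure D3:**
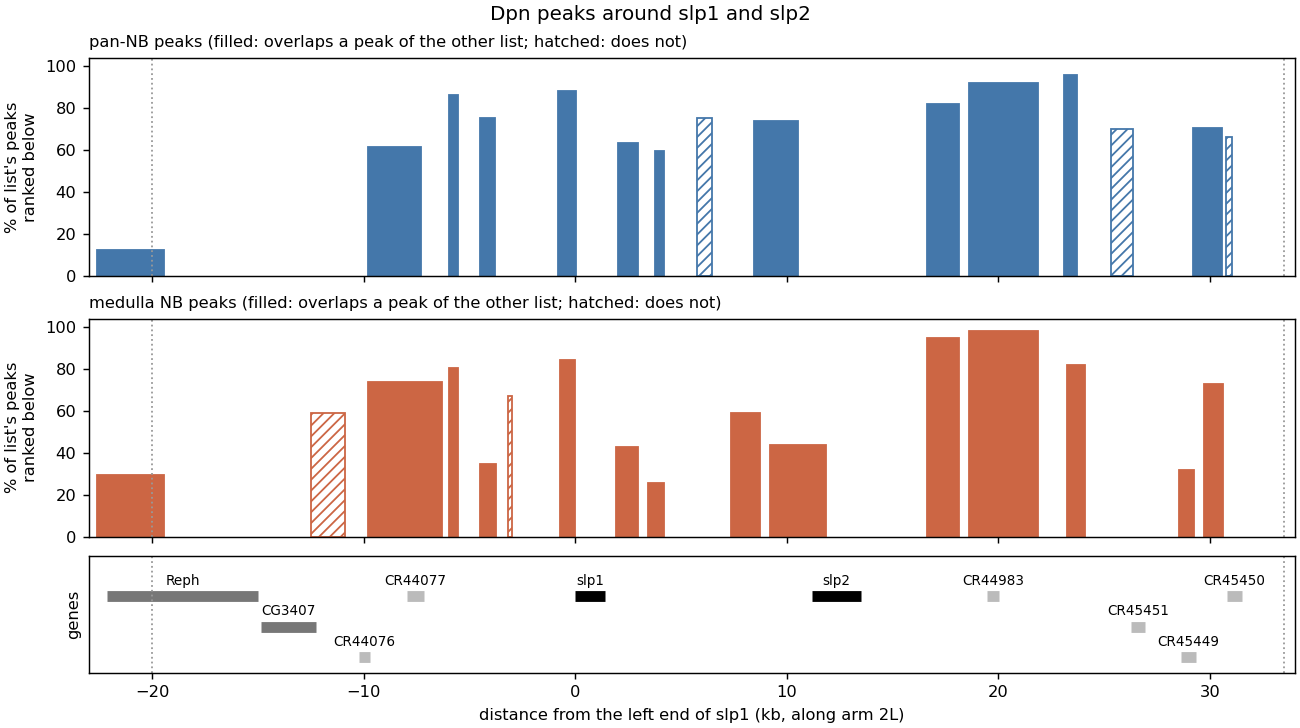
Pan-NB peaks (top, blue) and medulla peaks (middle, orange) along the locus, by distance from the left end of slp1 (kb), with annotated genes below (black for slp1 and slp2, dark grey for other protein-coding genes, light grey for lncRNA genes). Each bar is 1 peak drawn to its width, its height is the percentage of the list's peaks that rank below it, and dotted lines mark 20 kb from the genes; the bars at 16 to 22 kb are the highest medulla peaks, slp1 has 42 bp under a pan-NB peak and 0 bp under a medulla peak, and slp2 has 687 bp under a medulla peak.

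Most peaks were common to both lists. Of the 15 pan-NB members 12 (80%) were shared, against 55.1% of that list as a whole. Of the 16 medulla members 14 (87.5%) were shared, against 69.6%. By length, 13964 bp were under peaks of both lists, which is 81.4% of the pan-NB length and 67.3% of the medulla NB length. Medulla NB peaks alone covered 6799 bp and pan-NB peaks alone 3187 bp. Of each list, 8 peaks had a start or an end at the same base as an overlapping peak, which were 53.3% of the pan-NB members and 50% of the medulla members, against 32.3% and 40.1% over all peaks. Of these, 4 were identical in both lists. Over all peaks, 9.41% of the pan-NB list and 11.6% of the medulla list were identical to a peak of the other list, and 26.7% and 25% were so at the locus. Peaks of DamID begin and end at GATC sites, which both profiles share.

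Ranks were widely spread in both lists, from 184 to 3748 of 4282 for pan-NB members and from 69 to 2587 of 3474 for medulla members. Of the pan-NB members, 14 of 15 had a score above the median of their list (4.01), all but the peak at Reph, and scores ran from 2.27 to 7.37 with a median of 5.52. Of the medulla members, 10 of 16 were above the median of theirs (4.02), and scores ran from 2.58 to 11.05 with a median of 5.065. Scores of at least 5.58 in the pan-NB list against 6.42 in the medulla list, which 1077 and 871 peaks reached, were found at 7 and 5 members. Among the 14 overlapping pairs, the medulla peak stood nearer to the top of its list in 5 and the pan-NB peak in 9. A pan-NB peak that overlapped 2 medulla peaks counts in 2 pairs, and the share over all overlapping pairs of the lists is not given here. The 5 were the pair at Reph, the pair at lncRNA:CR44076, both pairs of identical peaks right of slp2 and the pair with 837 bp in common near lncRNA:CR45450. All pairs between slp1 and slp2 ranked nearer to the top in the pan-NB list. The members were narrower than usual, with a median width of 964 bp in both lists against 1408.5 bp and 1419 bp over all peaks. They were also closer together, with a median gap of 1618 bp in the pan-NB list against 1125 bp in the medulla list, where the median over all neighbouring peaks was 8355.5 bp and 9849.5 bp.

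The false discovery rate (FDR) that the peak caller gave also joined the peaks into runs. The 8 consecutive pan-NB peaks from chr2L:3827668 to 3852035, from the right side of slp1 to beyond slp2, had 1 common FDR of 7.72e-74. With a single peak counted as a run of 1, the pan-NB list had 3505 runs of equal FDR, of which 508 held more than 1 peak. Of all these runs, 2 were longer than the run of 8, and 6 had a lower FDR. In the medulla list the same stretch was split, and its longest runs at the locus were 3 peaks. One of these, the 3 peaks right of slp2, had an FDR of 1.83e-28, and the medulla peak that ran into slp2 had an FDR of 0.00017. FDRs depend on the profile of each list and were not compared between them.

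Of the other genes in the window, all 8 had a peak within 1 kb in at least 1 list, 7 in each list and 6 in both. Over all annotated genes, lncRNA genes included, 26.3% had a pan-NB peak within 1 kb, 22.2% a medulla peak and 15.8% both. CG3407 had a peak in the medulla list only, with 1219 bp covered, and lncRNA:CR45451 in the pan-NB list only, with 1018 bp. Reph had the same 3164 bp covered in both lists and lncRNA:CR44983 the same 2410 bp. lncRNA:CR44077 had 1644 bp in the pan-NB list against 2669 bp in the medulla list, lncRNA:CR44076 had 1055 bp and 1386 bp, lncRNA:CR45449 had 1099 bp and 1297 bp, and lncRNA:CR45450 had 1052 bp and 803 bp. Some peaks in the flanks of slp1 and slp2 are therefore also peaks within 1 kb of these genes, and the lists do not tell which gene a peak belongs to. Between slp1 and slp2, no peak lay within 1 kb of another gene.

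Set beside the other genes of the medulla temporal series, slp had the largest covered share within 20 kb, but not at each distance. By length, hth had more under pan-NB peaks within 20 kb, 40151 bp against 17151 bp at slp, in a wider window. With 20 kb on both sides of the span from slp1 to slp2, 38.8% was covered in the medulla list. The Sox-family gene D, which follows slp in the series, had 21.9%. ey, the Pax6 homologue that precedes slp, and tll, the orphan nuclear receptor gene at the end of the series, each had 12.1%, and hth, the homeodomain TF gene at its start, had 5.03%. In the pan-NB list the order was different behind slp (32.1%), with 26% at D, 23.3% at hth, 21.3% at tll and 11.3% at ey. With 1 kb, the distance used in the study, the medulla share of the slp span was 42%, against 36.9% at tll, 21.5% at ey, 13.1% at D and 3.32% at hth, and slp1 by itself had 35.7%, less than tll. The pan-NB share at 1 kb was 54.8% at tll and 45% at D, both more than the 32.2% of the slp span. With 5 kb, the medulla share was 45.1% at slp2 and 30.2% at slp1, with tll (35.3%) and D (35.2%) between them. The pan-NB share at 5 kb was 46% at tll and 45.6% at D, above slp2 (31.8%) and slp1 (31.1%). With 20 kb, the medulla list held 54.8% of the summed covered length of both lists at slp and 51.7% at ey. It held 45.7% at D, 36.1% at tll and 17.7% at hth. Within 1 kb it held 56.6% at slp, 54.6% at ey, 40.2% at tll, 22.5% at D and 12.2% at hth. Over the whole lists, medulla peaks covered less than pan-NB peaks, 5666728 bp against 6975497 bp. The larger medulla length at slp within 20 kb did not hold for the higher-scoring part of each list, with 14303 bp against 16590 bp. Of the covered bases within 20 kb, the part common to both lists was 58.3% at slp and 14.3% at hth. At ey, D and tll it was between 36.2% and 39.3%. With 1 kb this part was 47.7% at slp, 47.2% at tll, 44.3% at ey, 19.6% at D and 9.43% at hth, so that slp, tll and ey were close. In rank of the single best peak slp did not lead, since the best medulla peak at ey had rank 17, at hth rank 42, at slp rank 69, at D rank 74 and at tll rank 209. Its 15 pan-NB and 16 medulla peaks were more than at D (8 and 9), ey (6 and 7) and tll (5 and 5), and hth, in a wider window of 172008 bp, had 28 and 6.

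At other forkhead genes, a minority of the nearby peaks was shared between the lists. Forkhead TFs share a winged-helix DNA-binding domain. Of the 15 forkhead genes other than slp1 and slp2, 8 had a pan-NB peak within 1 kb, 7 a medulla peak, 4 both and 4 neither (bin, fd19B, FoxL1 and FoxP), where the share over all protein-coding genes, whatever their length, was 26.7%, 23.1% and 16.5%. Of their 15 pan-NB peaks 3 were shared, where the share over that whole list was 55.1%, and of their 10 medulla peaks 3, where it was 69.6%. At slp1 and slp2 all 3 peaks within 1 kb were shared in each list, and these differences were not tested. The best-ranking pan-NB peaks of the family lay at jumu (rank 422), slp1 (493), croc (636) and CHES-1-like (723). In the medulla list they lay at slp1 (537), CHES-1-like (581), jumu (878) and slp2 (1964). jumu had 5049 bp and 6155 bp covered, the most of the family in both lists.

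Pair-rule genes are known to divide the embryo into segments. Of the 7 pair-rule genes other than slp1 and slp2, 5 had a pan-NB peak within 1 kb, 4 had one in both lists and 2 had none (odd and prd). Over all protein-coding genes, whatever their length, 26.7% had a pan-NB peak within 1 kb, and 16.5% had one in both lists. Of the 12 pan-NB peaks at these 7 genes 8 were shared, against 55.1% of that whole list. Of their 9 medulla peaks 8 were shared, against 69.6%, and opa alone held 5 of the 8 in each list. These differences were not tested. opa, which is also a gene of the extended medulla temporal network, had 4794 bp and 5793 bp, and ftz had 1355 bp and 1715 bp. eve had 1172 bp and hry, the gene of the Hes-type repressor Hairy, 722 bp in both lists, and run had 3629 bp in the pan-NB list against 0 bp in the medulla list. en and wg, segment polarity genes downstream of slp in the embryo, had 1727 bp and 2885 bp under pan-NB peaks and 0 bp under medulla peaks.

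Among 18 pairs of nearby genes, mostly paralogs, the interval between slp1 and slp2 had the highest share under medulla peaks (52.6%). Its share under pan-NB peaks was the second highest (42.4%). Some intervals hold other protein-coding genes, such as 1 between D and Sox21a, while that of slp1 and slp2 holds 0. The medians over the pairs were 9.76% and 20.9%. The pan-NB list had its highest share at en and inv, 61.2%, where medulla peaks covered 2.62%. In the medulla list disco and disco-r followed slp with 31.6%, then gsb and gsb-n with 28.4% and D and Sox21a with 25.3%. At the lower end, the interval of nub and pdm2 had 1.15% in the pan-NB list against 0% in the medulla list, mid and H15 had 23.5% and 0%, and eyg and toe had 0% and 6.15%. Intervals ran from 9632 bp to 81309 bp, and that of slp1 and slp2, of 9740 bp, was among the shortest.

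**Figure D4:**
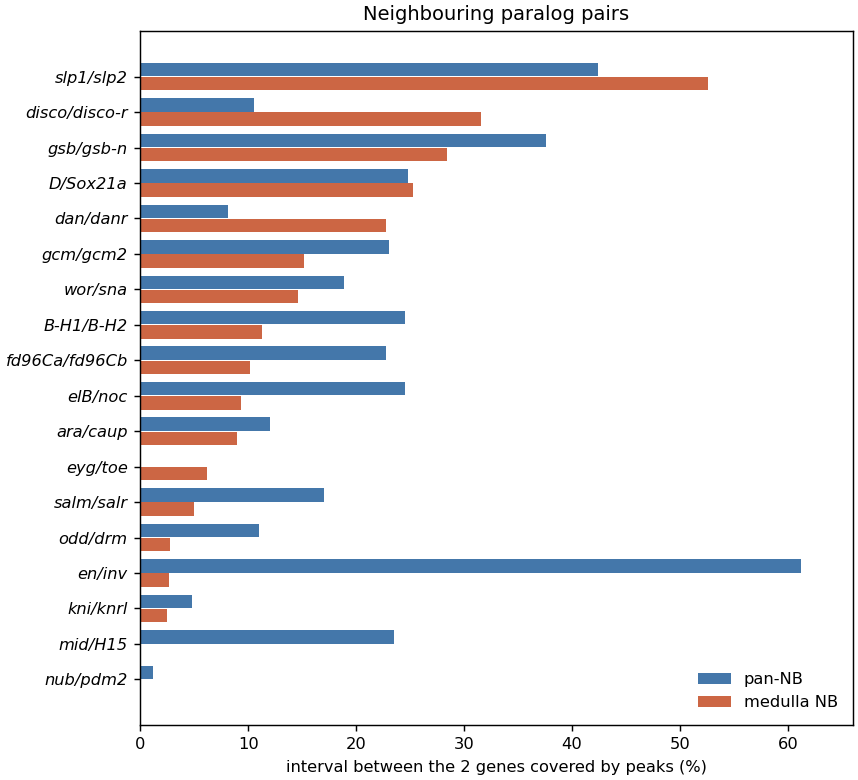
Share (%) of the interval between the genes of 18 pairs of nearby genes that was covered by pan-NB peaks (blue) and medulla peaks (orange), ordered by the medulla share. slp1 and slp2 (42.4%, 52.6%) stand at the top, and en and inv show 61.2% in the pan-NB list against 2.62% in the medulla list.

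The protein-coding genes outside the window with the pattern most like that of slp1 and slp2 were sought by 3 shares over the gene with 20 kb on both sides, namely the pan-NB cover, the medulla cover and the part of covered bases common to both lists. The mean of slp1 and slp2 was 34.7%, 42.4% and 61.7%. The nearest genes were CG45544 on 3R (30.4%, 32.6% and 64.7%), CG12708 on X (27.8%, 40.5% and 51.8%), CG43131 on 3R (45%, 35.4% and 60.7%), SoxN on 2L (38.4%, 31.8% and 53.8%) and stg on 3R (27.8%, 30.3% and 65.7%). SoxN encodes a Sox-family TF and stg the Cdc25 phosphatase that triggers mitosis. The Euclidean distance ran from 11.2 to 14.5 percentage points, so even the nearest gene was not a close match, and the measure rests on 2 lists only.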

How the data were processed

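The authors used damidseq_pipeline with default options for alignment, averaged 2 replicates into 1 binding profile, and called peaks with find_peaks (min-quant 0.8, FDR below 0.01). Their methods state peak calling for each replicate, whereas both deposited lists are named as averages, so the order of averaging and calling is not settled here. Their comparison of occupancy by replicate was not used. Versions and genome build: not given in the sources used here. Each deposited list gives positions, a score per peak and its FDR. The 7 pan-NB peaks on the Y chromosome were left out. An average holds no replicate error, and profiles of different quality can give lists of different length at 1 FDR threshold.

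Genes were placed with a RefSeq table (Release 6). It lists 17684 genes on the major arms and chromosome 4, of which 13922 are protein-coding. The lists name no build. Their peaks reach 32078821 on 3R, close to the last gene there (32068441), and gene coordinates are not printed. Left and right follow rising 2L positions, since the table gives no strand. It holds no sequence, so no DNA or protein sequence and no motif or GATC search is given.

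Peaks were joined to genes within 1 kb, as in the study, or 20 kb, and overlap means 1 bp. The interval code was tested on simulated data. Analyses used Python 3.11.15 and numpy 2.4.6. The members, gene lists and distances were chosen with earlier results of these data known. Genes were named by rule: both slp genes, all genes of the window, hth, ey, D and tll, list members with none or up to 4 with the highest-scoring peaks, extreme pairs and the 5 most like genes. The other pair-rule genes, jumu for its cover, en, wg and the further pairs were named after their values were seen. Alternatives were distances, 50% overlap, an FDR below 0.001, the higher-scoring 50%, equal numbers of peaks, joining below 500 bp and all annotated genes.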

Additional observations from a re-analysis of the deposited data

How the results depend on the processing

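With equal numbers of peaks (1742 of each list), and also with only the higher-scoring 50%, settings chosen for this value after seeing the data, the medulla NB minus pan-NB covered length turned from 3612 bp to -2287 bp, and with an FDR below 0.001 it was 3474 bp. In these 2 settings the medulla list had 10 peaks in the window, 8 of them shared. In the medulla list slp1 and slp2 had ranks 6 and 7 by covered share in both settings. In the pan-NB list they had ranks 7 and 2 with the higher-scoring 50%, and 5 and 2 with equal numbers. With an FDR below 0.001, slp2 had rank 5 in the pan-NB list. By construction, narrower windows held fewer peaks: 5 pan-NB and 4 medulla peaks touched the span from slp1 to slp2 itself, 5 and 5 lay within 1 kb of it, and 7 and 8 within 5 kb. slp1 itself was touched by 1 pan-NB and 0 medulla peaks, had 5 and 5 within 5 kb, and 11 and 13 within 20 kb. slp2 itself was touched by 0 pan-NB peaks, and had 3 and 3 within 5 kb and 14 and 14 within 20 kb. Windows of 5 kb and 1 kb gave slp1 ranks of 433 and 750 and slp2 ranks of 405 and 2880 in the pan-NB list, and for medulla peaks 374 and 693 for slp1 and 57 and 570 for slp2. Other settings stayed within 1.5 times the reported count or length, among them 50% overlap (12 shared peaks in each list) and joining of peaks closer than 500 bp (13 pan-NB and 11 medulla peaks). Each list was deposited as 1 average of 2 replicates, so no replicate could be left out. No paired analysis was possible because the averaged lists keep no values of single replicates.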
